A study of Homo sapiens with 8 samples.

Results

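TMEM45A, CFAP96, LOC154761, AK4, ARLN and VLDLR are 6 genes, of the 19775 genes with a probe set on the Affymetrix HG-U133 Plus 2.0 array, whose signal was higher after 12 h of hypoxia in both of the colon cancer lines DKS-5 and DKO-3. They were chosen on that hypoxia difference itself and on the agreement of their probe sets, with no numeric threshold. Each array measured the RNA of 1 culture sample: DKS-5, a line labelled K-ras mutant, at 1% O2 for 12 h or at 21% O2 (normoxia), and DKO-3, labelled as a K-ras knockout or wild-type line, at the same 2 oxygen levels, with 2 arrays in each of the 4 groups. Each genotype is represented by 1 cell line, so K-ras genotype and any other difference between the lines cannot be told apart, and the sources used here do not say whether the 2 samples of a group were separate cultures. The p-values therefore measure only the spread between these arrays, which may be technical.

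When oxygen falls, the alpha subunits of the hypoxia-inducible factors (HIF) escape prolyl hydroxylation and breakdown, pair with their beta subunit and bind short DNA motifs with the core ACGTG or GCGTG near their target genes. Well-known targets serve glucose uptake, glycolysis and vessel growth. The 6 genes here belong to other parts of the cell. AK4 is an adenylate kinase of the mitochondrial matrix, and VLDLR is a surface receptor of the LDL receptor family that takes up lipoproteins and binds reelin. ARLN, or another-regulin, is a very small membrane protein that binds the SERCA calcium pump of the endoplasmic reticulum. TMEM45A is a multi-pass membrane protein of unsettled function. CFAP96 is named as a cilia and flagella associated protein, and RefSeq classes LOC154761 as a transcribed pseudogene.

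The stretches just before the annotated starts of 4 of these genes are shown because they carry different numbers of HIF core motifs. Each is the 250 bases upstream of the RefSeq start (GRCh38.p14), read 5′ to 3′ on the gene's strand, with ACGTG and GCGTG on either strand in capitals. AK4 lies at chr1:65147302-65147551 on the plus strand, CFAP96 at chr4:185426004-185426253 on the plus strand, VLDLR at chr9:2621537-2621786 on the plus strand and TMEM45A at chr3:100492369-100492618 on the plus strand.
AK4: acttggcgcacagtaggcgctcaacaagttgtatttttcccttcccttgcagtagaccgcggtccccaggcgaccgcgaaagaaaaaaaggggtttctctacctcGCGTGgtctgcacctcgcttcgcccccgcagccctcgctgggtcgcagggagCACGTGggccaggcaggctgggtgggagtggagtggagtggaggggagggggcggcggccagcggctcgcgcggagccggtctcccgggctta
CFAP96: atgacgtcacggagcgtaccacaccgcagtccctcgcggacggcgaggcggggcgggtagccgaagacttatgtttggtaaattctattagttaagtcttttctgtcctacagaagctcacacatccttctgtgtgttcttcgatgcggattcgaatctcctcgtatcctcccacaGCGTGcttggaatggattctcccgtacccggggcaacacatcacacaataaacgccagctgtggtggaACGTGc
VLDLR: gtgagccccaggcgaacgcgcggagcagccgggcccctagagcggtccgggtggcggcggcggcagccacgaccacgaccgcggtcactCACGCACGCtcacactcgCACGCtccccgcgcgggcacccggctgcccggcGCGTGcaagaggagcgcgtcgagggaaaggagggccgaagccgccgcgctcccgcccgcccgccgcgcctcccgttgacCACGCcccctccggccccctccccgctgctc
TMEM45A: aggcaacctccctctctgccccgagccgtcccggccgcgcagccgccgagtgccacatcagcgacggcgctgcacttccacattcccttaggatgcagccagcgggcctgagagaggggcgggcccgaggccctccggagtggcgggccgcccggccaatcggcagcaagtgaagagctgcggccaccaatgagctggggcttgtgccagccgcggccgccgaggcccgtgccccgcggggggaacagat

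Of the 5 genes with a promoter in the RefSeq table, 2 held ACGTG in this window (AK4 and CFAP96) and 3 held either motif. In AK4 the letters ACGTG began 92 bases before the start on the gene's strand and were overlapped by ACGTG on the opposite strand, beginning 93 bases before it, and GCGTG stood at 145 bases. AK4 has 4 annotated starts. The window shown is that of the first, and the windows of the others held no ACGTG. In CFAP96, ACGTG began 6 bases and GCGTG 74 bases before the start. VLDLR held GCGTG 5 times, 4 of them on the opposite strand and 2 of these overlapping, and no ACGTG. TMEM45A, with 72.8% G and C, and ARLN, at chr4:119300646-119300895 on the minus strand with 62.8%, held neither motif. Among 35116 promoter windows of the same length, 18.5% held ACGTG, 32.2% GCGTG and 43.2% either. Among the 15006 windows of genes tested here these shares were 22.0%, 42.4% and 53.8%. A match is a stretch of letters, not a shown binding site, and its absence concerns only this window.

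The 8 arrays were comparable in brightness only after scaling. The 2% trimmed mean of the deposited signal ran from 132.5 to 201.0 and was set to 172.1 on every array. Pearson's r between the 2 arrays of a group over the 12735 genes tested lay between 0.976 and 0.989. The 3′ to 5′ signal ratio of ACTB, which stands here for RNA quality, ran from 11.0 to 55.1, and it was lowest on the DKO-3 hypoxia arrays, at 11.5 and 11.0, while the DKO-3 normoxia arrays had 49.0 and 14.9. Of 12 fixed colon epithelial markers 9 lay above the filter on dim probe sets, among them EPCAM, CDH1, KRT8, KRT18 and CDX2, while CDX1, LGALS4 and GPA33 lay below it. Between the lines 3 of these 9 markers passed the threshold. KRT20 and KRT19 were lower in DKS-5 (DKS-5 minus DKO-3 -4.01 and -0.96, log2, limma adjusted p = 4.34e-09 and 0.00193), and VIL1 was higher (1.65, limma adjusted p = 2.31e-05). In hypoxia against normoxia 1 of the 9 passed in DKS-5, KRT19 (1.28, limma adjusted p = 0.0221), beside 0.503% of all genes called higher. In DKO-3 0 passed, and KRT19 stood at 1.12 (limma adjusted p = 0.0730). Of 16 markers of blood, endothelium, fibroblasts, neurons and liver, 3 lay above the filter (HBB, COL1A1 and SYT1), and none of these passed the threshold in any comparison. Signals are from whole cultures, in which more responding cells and more RNA per cell cannot be told apart.

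The 6 genes were represented by 12 probe sets that the platform annotation assigns to 1 gene each: 1 each for TMEM45A, LOC154761 and VLDLR, 2 for CFAP96, 3 for ARLN and 4 for AK4. All 6 genes and all 12 probe sets passed the filter on dim values. In both lines the hypoxia arrays of all 12 probe sets lay above the normoxia arrays without overlap. Of all genes tested, 8.54% did so in both lines. By the limma fit, 6 of the 6 genes passed the adjusted threshold of 0.05 in DKS-5, where 0.503% of all genes were called higher. In DKO-3, 5 of the 6 passed, all but ARLN, where 0.346% were called higher, and 0.243% of all genes were called higher in both lines. The values chose the genes, so nothing is read from these counts. The DKO-3 calls depended on single arrays, and so did the number of DKO-3 calls over all genes. With 1 DKO-3 array left out, its group holds 1 array. The DKO-3 differences of the 6 genes then kept their sign, and that of ARLN ran from 0.18 to 0.45. With no filter on dim probe sets 1 passed in DKO-3 (AK4), and with the RNA quality covariate 2 (TMEM45A and AK4). Over all genes the DKO-3 calls fell as well, from 44 of 12735 to 7 of 19775 without the filter and to 14 of 12735 with the covariate. In DKS-5, 4 to 6 of the 6 passed under every alternative. The VLDLR call in DKS-5 ended in 6 of 17 alternatives and that of LOC154761 in 1, and those of the other 4 genes in 0. The median log2 difference of the 6 genes was 2.17 for DKS-5 (0.0223 over all genes tested) and 1.68 for DKO-3 (0.0355).

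**Figure D1:**
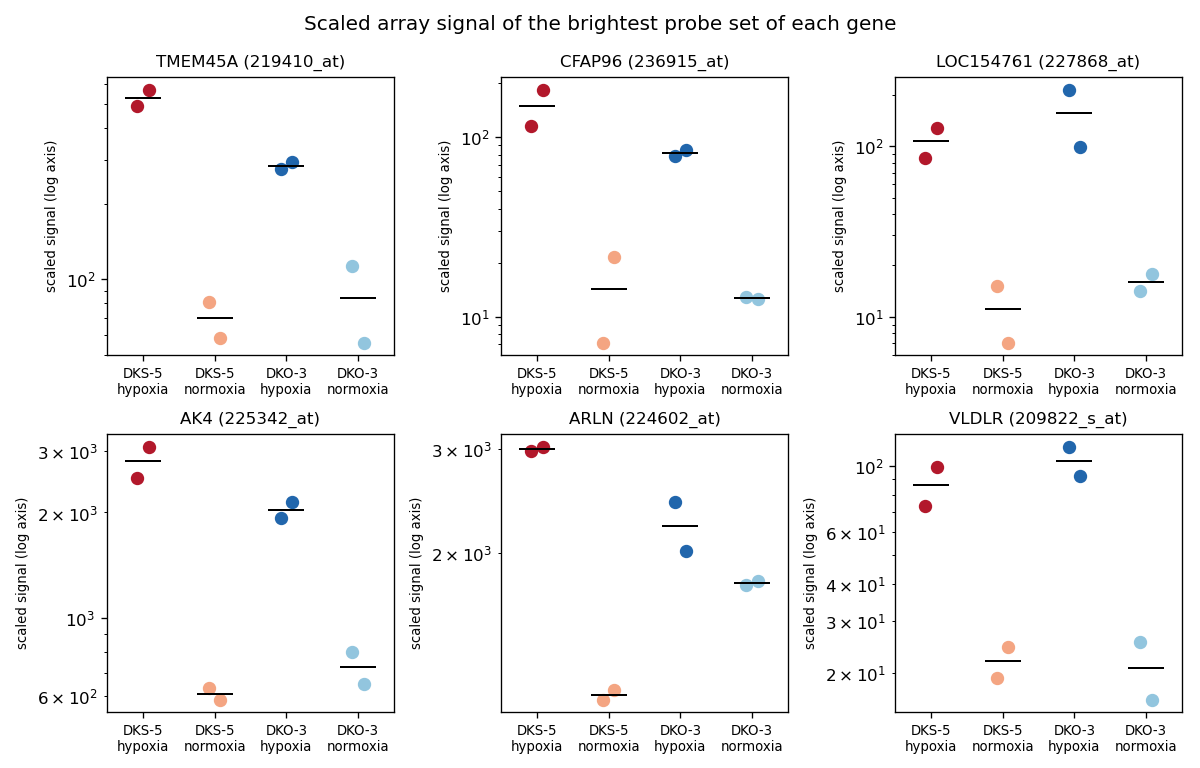
Scaled array signal (log axis) of the brightest probe set of each gene, with 1 point per array and a line at the mean of each group of 2 arrays. In every panel the hypoxia points of a line lie above its normoxia points, and ARLN in DKO-3 has the smallest gap, with means of 2225 and 1776.

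TMEM45A was bright in hypoxia and dimmer in normoxia in both lines. Its single probe set, 219410_at, gave signals of 491 and 570 in DKS-5 hypoxia, against 80.9 and 58.5 in DKS-5 normoxia. In DKO-3 the signals were 275 and 293 in hypoxia, against 113 and 55.8 in normoxia. The groups of each line were far apart, and the normoxia arrays of the lines overlapped while both DKS-5 hypoxia arrays exceeded both of DKO-3. On the log2(signal + 16) scale, which understates the change of dim genes, the difference was 2.68 ± 0.29 in DKS-5 and 1.64 ± 0.29 in DKO-3 (limma SE, 2 arrays per group). The ratio of the mean signals was 7.61 and 3.37. The DKS-5 value was the largest of the 6 with the pseudocount of 16, but with a pseudocount of 1 it was 2.93, below those of CFAP96 (3.44) and LOC154761 (3.22). Of 12735 genes it ranked 3 for DKS-5 and 19 for DKO-3. The DKO-3 difference was 2.06 without DKO-3 normoxia replicate 1 and 1.22 without replicate 2.

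CFAP96 was dim in normoxia in both lines. Probe set 236915_at gave 116 and 184 in DKS-5 hypoxia, against 7.14 and 21.4 in DKS-5 normoxia. In DKO-3 it gave 78.5 and 84.6 in hypoxia, against 12.9 and 12.6 in normoxia. The normoxia values lay around the level of the filter, a signal of about 13.8. Detection calls were not used here, so whether the transcript was present in normoxia is not known. The log2 difference was 2.46 ± 0.29 for DKS-5 and 1.76 ± 0.29 for DKO-3. The ratio of the mean signals, with no pseudocount, was 10.5 and 6.39. The second probe set, 237585_at, gave 64.5 and 71.1 in DKS-5 hypoxia, against 17.9 and 16.3 in DKS-5 normoxia, and 64.3 and 40.8 in DKO-3 hypoxia, against 11.4 and 23.3 in DKO-3 normoxia. It was also higher in hypoxia, by 1.34 in DKS-5 and 1.04 in DKO-3, so that both probe sets gave the same direction and different sizes. With a pseudocount of 1 the difference of the brighter probe set was 3.44 in DKS-5 and 2.58 in DKO-3, and with 64 it was 1.44 and 0.92.

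LOC154761, the pseudogene transcript, was also dim in normoxia, around the level of the filter. Probe set 227868_at gave 85.8 and 129 in DKS-5 hypoxia, against 15.1 and 7.04 in DKS-5 normoxia. In DKO-3 it gave 215 and 99.8 in hypoxia, against 14.1 and 17.9 in normoxia. The hypoxia arrays of the lines overlapped, and the DKO-3 pair was the most spread of them. The log2 difference was 2.18 ± 0.32 in DKS-5 and 2.35 ± 0.32 in DKO-3, and the ratio of the mean signals was 9.70 and 9.83. With a pseudocount of 1 the differences were 3.22 and 3.13, and with 64 they were 1.18 and 1.42. The DKO-3 difference was 1.86 without DKO-3 hypoxia replicate 1 and 2.85 without replicate 2. In RefSeq's gene order the nearest tested genes are TCAF2 on one side, with 6 untested genes between, and TCAF1 on the other, with 1 between. Both encode factors that associate with the TRPM8 channel. TCAF2 had signals of 16.6 and 18.9 in DKS-5 hypoxia, against 8.78 and 6.90 in DKS-5 normoxia. In DKO-3 TCAF2 had 52.9 and 22.7 in hypoxia, against 13.8 and 12.4 in normoxia. Its hypoxia arrays lay above its normoxia arrays in both lines, but its differences, 0.50 for DKS-5 and 0.83 for DKO-3, did not pass the threshold (limma adjusted p = 0.786 and 0.316). Whether RNA of one of these genes binds the other's probes was not tested.

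AK4 was higher in hypoxia by all 4 of its probe sets. The brightest, 225342_at, gave 2512 and 3075 in DKS-5 hypoxia, against 633 and 586 in DKS-5 normoxia. In DKO-3 it gave 1923 and 2138 in hypoxia, against 800.0 and 649 in normoxia. The groups were tight, and DKS-5 was above DKO-3 in hypoxia and below it in normoxia with no overlap. The log2 difference was 2.16 ± 0.19 for DKS-5 and 1.47 ± 0.19 for DKO-3. The other probe sets ordered the lines differently among themselves. Probe set 204347_at gave 2.16 in DKS-5 and 2.12 in DKO-3, 204348_s_at 2.13 and 1.52, and 230630_at 1.52 and 2.35. The signals of 230630_at were 106 and 145 in DKS-5 hypoxia, against 34.7 and 30.7 in DKS-5 normoxia, and 184 and 173 in DKO-3 hypoxia, against 14.7 and 31.6 in DKO-3 normoxia. By the means, the AK4 response was thus larger in DKS-5 for 225342_at and 204348_s_at, within 0.05 for 204347_at and turned round for 230630_at. The DKS-5 arrays of 204348_s_at were widely spread, with 300 and 666 in hypoxia, against 152 and 50.5 in normoxia. Their within-group SD of 0.869 (log2) exceeds the gap of 0.617 between the lines, so this probe set does not settle the order. The suffix _s_at marks probe sets whose probes match more than 1 transcript.

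The 3 ARLN probe sets gave one direction and different sizes. Probe set 224602_at, the brightest, gave 2983 and 3029 in DKS-5 hypoxia, against 1124 and 1166 in DKS-5 normoxia. In DKO-3 it gave 2436 and 2014 in hypoxia, against 1764 and 1789 in normoxia. The DKO-3 groups were close although they did not overlap, and both DKO-3 normoxia arrays were above both of DKS-5 normoxia. The log2 difference was 1.38 ± 0.17 in DKS-5 and 0.32 ± 0.17 in DKO-3, where it ranked 2764 of 12735 genes and did not pass the threshold. Probe set 224604_at gave another picture. It read 1306 and 2932 in DKS-5 hypoxia, against 612 and 727 in DKS-5 normoxia, and in DKO-3 1316 and 1402 in hypoxia, against 490.3 and 486 in normoxia. Its differences were 1.53 and 1.45, and those of 224605_at were 1.30 and 0.73. The DKS-5 arrays of 224604_at were widely spread. Their within-group SD of 0.591 (log2) exceeds the gap of 0.08 between the lines, so this probe set does not settle the order. Probe set 224605_at read 734 and 1297 in DKS-5 hypoxia, against 434 and 345 in DKS-5 normoxia, and 791 and 686 in DKO-3 hypoxia, against 414 and 464 in DKO-3 normoxia. The hypoxia difference in DKS-5 minus that in DKO-3 was therefore 1.06 by 224602_at, 0.57 by 224605_at and 0.08 by 224604_at. All 3 probe sets were higher in DKO-3 hypoxia, but agreement of probe sets was part of the choice of the genes, so it adds no support. The size of the DKO-3 difference ran from 0.32 to 1.45.

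VLDLR had a dim probe set and like differences in the lines. Probe set 209822_s_at gave 73.1 and 98.9 in DKS-5 hypoxia, against 19.2 and 24.5 in DKS-5 normoxia. In DKO-3 it gave 116 and 92.5 in hypoxia, against 25.3 and 16.2 in normoxia. The arrays of the lines overlapped at both oxygen levels. The log2 difference was 1.42 ± 0.26 in DKS-5 and 1.71 ± 0.26 in DKO-3, and the ratio of the mean signals was 3.94 and 5.02. A pseudocount of 64 in place of 16 brought the differences to 0.80 and 0.99.

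**Figure D2:**
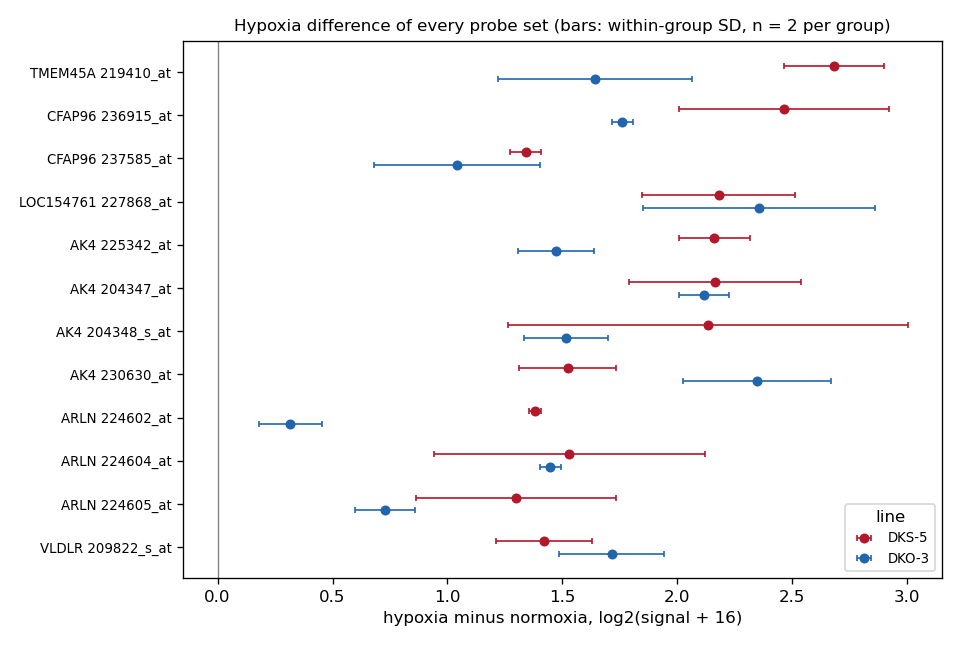
Hypoxia minus normoxia on the log2(signal + 16) scale for the 12 probe sets, with DKS-5 above DKO-3 in each pair and bars for the within-group SD of 2 arrays per group. All points lie above 0, the AK4 probe sets do not order the lines alike, and ARLN 224602_at stands at 0.32 in DKO-3 while 224604_at stands at 1.45.

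The 2 DKS-5 hypoxia arrays differed in a way shared by the 6 genes. Replicate 2 was above replicate 1 in 12 of 12 probe sets and in 6 of 6 genes, with a median log2 gap of 0.329 over the genes. Over all genes tested replicate 2 was the higher in 51.9%, with a median gap of 0.0207, and among 15 reference hypoxia genes in 10. Probe sets of 1 gene are not independent of each other. The ACTB 3′ to 5′ ratio was 54.8 in replicate 1 and 25.6 in replicate 2, and its part in the gap was not tested. In DKO-3 hypoxia, replicate 2 was the higher in 3 of the 6 genes. Without DKS-5 hypoxia replicate 2 the DKS-5 differences were 2.58 for TMEM45A, 2.17 for CFAP96, 1.93 for LOC154761, 2.02 for AK4, 1.37 for ARLN and 1.24 for VLDLR.

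As given above, the ACTB ratio in DKO-3 was lower on both hypoxia arrays (11.5 and 11.0) than on the normoxia arrays (49.0 and 14.9). Normoxia replicate 2 lay near the hypoxia pair, so the size of that gap rests largely on normoxia replicate 1. With the log2 ACTB ratio as a covariate the DKO-3 difference was 2.04 in place of 1.64 for TMEM45A and 1.46 in place of 1.76 for CFAP96. For LOC154761, AK4, ARLN and VLDLR it was 2.22, 1.54, 0.29 and 1.74, so that no gene changed its sign.

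The comparison between the lines over both oxygen levels is the one that the choice of the genes did not use, since it averages hypoxia and normoxia within each line. None of the 6 genes differed between DKS-5 and DKO-3 past the threshold, while 9.11% of all genes tested did (2.98% higher and 6.13% lower in DKS-5). TMEM45A stood at 0.34 ± 0.20 (limma SE, 4 arrays per line; adjusted p = 0.349) and CFAP96 at 0.38 ± 0.20 (limma adjusted p = 0.286). LOC154761 was at -0.34 ± 0.23 (limma adjusted p = 0.413). AK4 was at 0.11 ± 0.14, ARLN at -0.09 ± 0.12 and VLDLR at -0.10 ± 0.18 (limma adjusted p = 0.720, 0.713 and 0.821). At an unadjusted p under 0.05 limma called 0 of the 6, beside 1172 higher and 1695 lower of all 12735 genes tested. For so few genes that count says little. A missed threshold does not show that the lines were alike. The sign of TMEM45A turned with the RNA quality covariate (-0.04), that of AK4 without array scaling (-0.12) and with the mean of its probe sets (-0.04), and that of ARLN with the mean of its probe sets (0.17).

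At each oxygen level the line differences of these genes share arrays with the hypoxia differences that chose them, so they are given as description only. In hypoxia DKS-5 minus DKO-3 was 0.86 for TMEM45A, 0.74 for CFAP96, 0.45 for AK4 and 0.44 for ARLN, and -0.43 for LOC154761 and -0.24 for VLDLR. In normoxia it was -0.18, 0.03, -0.24 and -0.63 for the first group, and -0.26 and 0.05 for the second. The brightest probe sets of TMEM45A, CFAP96, AK4 and ARLN were thus higher in DKS-5 in hypoxia, and those of LOC154761 and VLDLR were not. The AK4 probe sets disagreed in hypoxia, with 0.45 by 225342_at and 0.31 by 204348_s_at, but -0.17 by 204347_at and -0.47 by 230630_at. For ARLN the normoxia value was -0.63 by 224602_at, 0.44 by 224604_at and -0.17 by 224605_at.

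**Figure D3:**
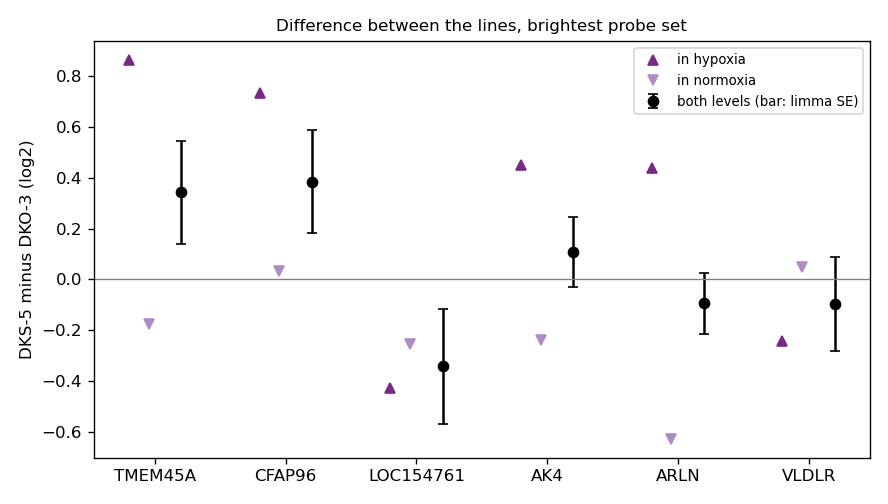
DKS-5 minus DKO-3 on the log2(signal + 16) scale for the brightest probe set of each gene, in hypoxia and in normoxia (means of 2 arrays per group) and over both levels with the limma SE. The values over both levels lie between -0.34 and 0.38, none past the threshold, and ARLN has the lowest normoxia value, -0.63.

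Relatives and partners of the 6 genes were read from the same fit. Of 48 such genes tested, 0 passed in DKS-5 and 0 in DKO-3 by limma. Since 0.503% and 0.346% of all genes were called higher, a list of this size would hold fewer than 1 call at the share of all genes, so the count is no result about the relatives. Counted by unadjusted p under 0.05, limma had 0 higher and 2 lower genes for DKS-5, and 3 higher and 3 lower genes for DKO-3. Of all 12735 genes tested, 569 were higher and 313 lower by that count for DKS-5, and 999 and 342 for DKO-3. These counts are likewise no result about the relatives. Their median difference was 0.0055 in DKS-5 and -0.0035 in DKO-3, near that of all genes. Among 5 adenylate kinases other than AK4 the medians were -0.09 and -0.28, and AK6, a nuclear family member, stood at -0.14 in DKS-5 and -0.52 in DKO-3 (limma adjusted p = 0.344 in DKO-3). AK1, the cytosolic adenylate kinase, was at 0.32 and 0.18. Of the calcium pump list 2 of 8 genes were bright enough to be tested. ATP2A2, the SERCA pump gene of most tissues, stood at 0.05 in DKS-5 and -0.31 in DKO-3, and PLN, the gene of the pump inhibitor phospholamban, at -0.34 and -0.66. TMEM45B, the closest relative of TMEM45A by name, had signals of 212 and 169 in DKS-5 hypoxia, against 114 and 264 in DKS-5 normoxia, and 167 and 147 in DKO-3 hypoxia, against 87.5 and 81.0 in DKO-3 normoxia. The DKS-5 arrays of TMEM45B overlapped, and its DKO-3 difference of 0.79 did not pass (limma adjusted p = 0.404).

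Of 25 other genes with a CFAP symbol the medians were 0.10 for DKS-5 and 0.03 for DKO-3. The smallest hypoxia p belonged to CFAP100-DT, a divergent transcript that carries the symbol without coding for the protein, at 0.85 in DKO-3 (limma adjusted p = 0.280). CFAP68 stood at -0.58 between the lines (limma adjusted p = 0.0776).

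In the LDL receptor family, 9 genes other than VLDLR were tested, and their median hypoxia difference was -0.08 for DKS-5 and -0.04 for DKO-3. Between the lines 2 of the 9 were higher in DKS-5 past the threshold, beside 2.98% of all genes. SORL1, a sorting receptor, had signals from 1543 to 1855 in DKS-5, against 739 to 968 in DKO-3, with no overlap, and its difference was 0.95 ± 0.14 (limma adjusted p = 0.00028). LRP8, the second reelin receptor beside VLDLR, had signals from 524 to 560 in DKS-5, against 340.1 to 410 in DKO-3, and a difference of 0.54 ± 0.15 (limma adjusted p = 0.0371). The LRP8 call ended in 7 of 16 alternatives, with adjusted p between 0.0318 and 0.388 over all of them, among them the RNA quality covariate and 5 of the 8 single arrays left out. The 4 tested VLDLR ligands and regulators had median hypoxia differences of 0.11 for DKS-5 and -0.07 for DKO-3, and LPL, the lipoprotein lipase gene, stood at 0.23 and -0.13.

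The nearest tested gene on each side of the 6 loci, in RefSeq's order, gave 12 neighbours, of which limma called 0 in DKS-5 and 0 in DKO-3, beside 0.503% and 0.346% of all genes called higher. By unadjusted p under 0.05 limma called 0 for DKS-5 and 1 for DKO-3, TCAF2, which was higher. Of all 12735 genes, 569 were higher and 313 lower by that count for DKS-5, and 999 and 342 for DKO-3. The DKS-5 differences of the 12 lay between -0.36 and 0.50, and those of DKO-3 between -0.24 and 0.83. LNP1 next to TMEM45A stood at -0.34 and 0.12, UFSP2 and CCDC110 on the sides of CFAP96 at -0.16 and 0.07 and at 0.21 and 0.04, and USP53 next to ARLN at 0.21 and -0.02. Only LNP1, UFSP2, CCDC110 and USP53 adjoin their gene directly in this order, and 1 to 8 untested genes lie between at the other 8 places. Between the lines 1 of the 12 passed, CCDC110, beside 9.11% of all genes, with signals from 37.6 to 53.1 in DKS-5, against 13.7 to 32.4 in DKO-3 (0.73 ± 0.20 by the fit, limma adjusted p = 0.0238). That call ended in 8 of 16 alternatives, with adjusted p between 0.0129 and 0.189.

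As a yardstick, 15 genes widely used to score hypoxia in tumours were read from the same fit. Of these limma called 6 higher in DKS-5 and 4 in DKO-3, and 0 lower in either, beside 0.503% and 0.346% of all genes called higher. Of the 15 differences 13 were positive in DKS-5 and 12 in DKO-3, with medians of 0.85 and 0.58. NDRG1, the N-myc downstream regulated gene, rose by 3.82 in DKS-5 and 2.34 in DKO-3 (limma adjusted p = 7.33e-08 and 8.18e-05). P4HA1, a collagen prolyl hydroxylase gene, rose by 1.41 and 1.04 (limma adjusted p = 0.000506 and 0.0130), calls that ended in 1 and 7 of 17 alternatives. LDHA, the lactate dehydrogenase gene, rose by 0.64 in DKS-5, a call that ended in 10 of 17 alternatives, and stood at 0.31 in DKO-3 (limma adjusted p = 0.0240 and 0.408). MRPS17, CDKN3 and ACOT7 of the same list stood between -0.14 and 0.19 in both lines. VEGFA, the vascular growth factor gene, rose by 2.12 in DKS-5, and ADM, the adrenomedullin gene, by 1.90 (limma adjusted p = 0.000206 and 0.000321). The VEGFA call ended with the mean of all probe sets. In DKO-3 VEGFA and ADM stood at 0.58 and 1.06 (limma adjusted p = 0.415 and 0.0706). Other reference genes had the larger value in DKO-3. ALDOA stood at 0.88 in DKS-5 and 1.39 in DKO-3, and TPI1 at 0.77 and 1.15. Both passed in DKO-3 only (limma adjusted p = 0.0118 and 0.00949). Among other alternatives, both calls ended without the filter on dim probe sets and with the RNA quality covariate. The TPI1 call also ended with the mean of all probe sets. ENO1 and MIF were also larger in DKO-3, without a call in either line. The order of the 6 genes against some of these depends on the pseudocount, since with 64 ADM stood at 1.77 in DKS-5, CFAP96 at 1.44 and LOC154761 at 1.18. NDRG1 in DKS-5 lay above all 6 genes with each pseudocount, at 3.969 with 1 and 3.445 with 64.

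**Figure D4:**
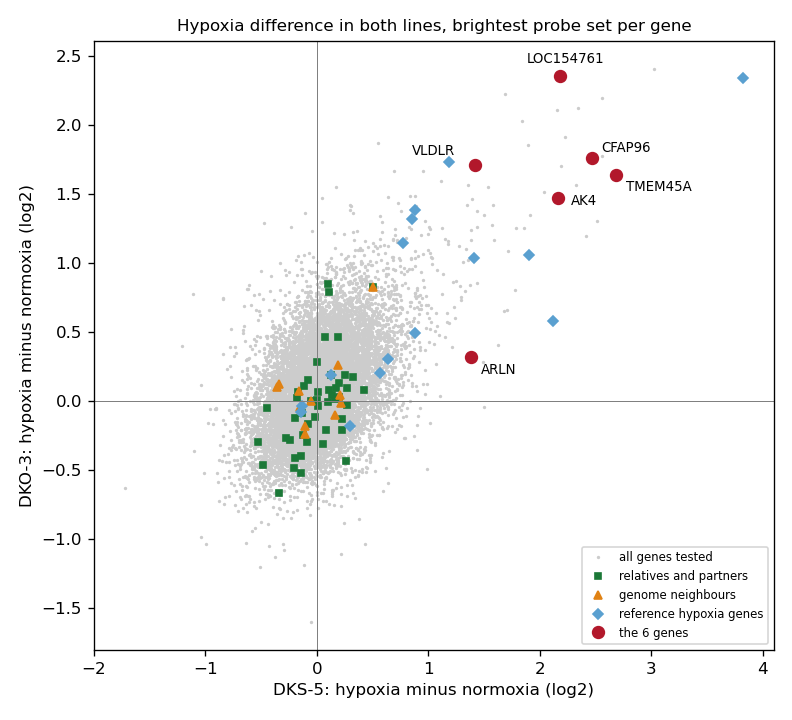
Hypoxia minus normoxia in DKS-5 (horizontal) and DKO-3 (vertical), log2, for the brightest probe set of each of 12735 genes. The 6 genes lie right of and above the main cloud except ARLN, at 1.38 and 0.32, while the 48 relatives and partners and the 12 neighbours lie within the cloud, between -0.66 and 0.85 on both axes.

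Over the 8 arrays the log2 levels of the 6 genes varied together, with Pearson's r between 0.786 (ARLN and VLDLR) and 0.987 (TMEM45A and AK4) in their 15 pairs. The points share the 4 groups and were chosen for a common difference, so these values only describe the arrays. By the same measure the genes most like AK4 were PFKFB4, a regulator of glycolytic flux (r = 0.987), the DNA repair gene BRCA1 (0.986) and the mitophagy gene BNIP3L (0.985). Most like TMEM45A were BRCA1 (0.979), the MYC-network repressor gene MXI1 (0.974) and the phosphoglucomutase gene PGM1 (0.971). CFAP96 was most like P4HA1 (0.991), the cell cycle transcription factor gene E2F2 (0.984) and the secreted lipase inhibitor gene ANGPTL4 (0.984). The measure matches shape and not size. BRCA1 was higher in hypoxia by only 0.35 in DKS-5 and 0.23 in DKO-3, and E2F2 by 0.65 and 0.47. Other companions were nearer in size, with BNIP3L at 2.23 and 1.91 and ANGPTL4 at 2.33 and 1.57.

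LOC154761 was most like the homeobox gene IRX3 (r = 0.988), RAB11B-AS1 (0.987) and EFHD1 (0.985). The difference of EFHD1 was 2.15 for DKS-5 and 2.11 for DKO-3. VLDLR was most like ANKRD37 (0.986), the neuritin gene NRN1 (0.984) and the repressor gene BHLHE40 (0.977). ARLN, by its brightest probe set, was most like the mTOR brake gene DDIT4 (0.960), PFKFB3 (0.958), a further regulator of glycolytic flux, and the ERK feedback gene SPRY1 (0.949), which differed by 2.51, 1.78 and 1.68 in DKS-5 and by 1.30, 0.81 and 0.65 in DKO-3. They were picked for likeness to 224602_at, so their differences say nothing about which ARLN probe set is nearer the gene's level.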

How the data were processed

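The deposited intensity values were linear probe set signals for 54675 probe sets on 8 arrays, which the submitters' processing notes credit to MAS5. Its version, scaling target and detection calls are not given in the sources used here. Per the labels' protocols, column-purified total RNA was amplified and biotin-labelled with a NuGEN kit. Each array was scaled to a 2% trimmed mean of 172.1, and the log2 of the scaled signal plus 16 was taken. The platform annotation gave 41091 probe sets with 1 gene, 1801 with several and 11721 unnamed here, and 41037 matched the RefSeq table. A gene was represented by its brightest probe set. Genes above the 40th percentile of mean levels were tested, which left 12735. Tests used limma 3.58.1 in R 4.3.3 (1 mean per group over 8 arrays, eBayes with a trend, two-sided, Benjamini-Hochberg over all genes tested, 4 residual and 11.3 prior degrees of freedom), and were checked on simulated data. The number of arrays limits the precision. The array files name no genome build, so RefSeq coordinates serve only the promoter windows. The genes, lists and tests were chosen with earlier results of these data known. Named were the 6 genes, the 3 tested genes most correlated with each, members of 7 lists of relatives past the threshold or with the smallest p, 15 reference hypoxia genes, and nearest neighbours. The alternatives were the pseudocount, filter, scaling, probe set rule, an RNA quality covariate, the replicate number as a block, fits within a line and each array left out. The level of the K-ras gene is not analysed here.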

Additional observations from a re-analysis of the deposited data

Results flagged for a closer look

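Of 89 relatives, neighbours, companions and reference hypoxia genes examined, 3 had hypoxia arrays all above the normoxia arrays in DKS-5 and all below them in DKO-3, a share of 3.37%, and 176 of all 12735 genes tested did so, a share of 1.38%. The tubulin gene TUBB6 stood at 0.295 in DKS-5 and -0.177 in DKO-3 (limma adjusted p = 0.743 and 0.711). CFAP251 stood at 0.263 in DKS-5 and -0.435 in DKO-3 (limma adjusted p = 0.895 and 0.558), and CFAP418 at 0.229 and -0.209 (limma adjusted p = 0.908 and 0.802). Whether the hypoxia difference itself differed between the lines was not tested for these genes, and none passed the threshold in either line. Groups of 2 arrays are too small for a search for outlying arrays.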

How the results depend on the processing

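Of 204 hypoxia differences of the 6 genes recomputed under the alternatives, 90 equalled the main value by the alternative's construction. Of the other 114, 82 moved by less than the SD between replicates, 32 moved further and 0 changed sign. Of 96 line differences, 0 passed the threshold and 4 changed sign: TMEM45A (-0.0421 with the RNA quality covariate), AK4 (-0.123 without array scaling, -0.0379 with the mean of all probe sets) and ARLN (0.167 with that mean). Of 15 called differences of relatives, neighbours and reference genes, 4 held under every alternative, those of NDRG1 in both lines, ADM in DKS-5 and SORL1 between the lines. Between the lines LDHA (0.23) turned to -0.000219 without array scaling. The genes past the threshold in DKS-5, 64 in all, were 35 without the filter, 33 without array scaling, 40 with the mean of all probe sets, 36 in a fit of the line's 4 arrays and 29 to 294 with 1 array left out, highest without DKS-5 hypoxia replicate 1. In DKO-3 44 genes became 7 without the filter, 84 without array scaling, 14 with the RNA quality covariate, 68 in a fit of 4 arrays, 92 with the replicate block and 1 to 69 with 1 array left out, lowest without DKO-3 hypoxia replicate 1. Between the lines 1160 became 1770 without array scaling (138 higher, where the median of all genes shifted to -0.206), 443 with the covariate and 631 to 1515 with 1 array left out. With the block the counts in DKS-5 and between the lines were 76 and 1391. The sample numbers are not stated to pair samples, and gaps between same-numbered arrays correlated by -0.0874 to 0.33 across genes.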
